A study of Drosophila melanogaster with 24 samples.

Results

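Chorion and vitelline membrane genes encode the structural proteins of the *Drosophila* eggshell. They were examined as 9 named genes, *Vm26Aa*, *Vm26Ab*, *Vm34Ca*, *Cp36*, *Cp38*, *Cp18*, *Cp15*, *Cp19* and *Cp16*, through the table that pairs the probe sets of the array with gene symbols. Of the 9 genes, 8 were paired with 1 probe set each, among 11981 genes that have a probe set of their own. *Vm26Ab* was paired with none and was not analysed here. The samples were whole bodies of virgin flies of 6 lines bred from 1 wild population: R1 and R2, selected for resistance to alcohol, S1 and S2, selected for sensitivity to it, and C1 and C2, unselected controls. For each line and sex there were 2 pools of 15 flies, aged 3 to 5 days at generation 25, which makes 24 arrays and 12 female arrays. According to the labels, all flies, controls included, met ethanol vapor before RNA was extracted, and no unexposed flies were measured. Pools are the replicates of a line, whereas only 2 lines stand for each selection regime.

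The eggshell is laid down around the oocyte by the follicle cells of the ovary. Follicle cells transcribe the vitelline membrane genes first, the chorion genes *Cp36* and *Cp38* next, and the chorion genes of the third chromosome last, each for a short window of egg chamber maturation. Both chorion clusters are amplified beforehand by repeated firing of replication origins, so that large amounts of chorion mRNA can be made in little time. *Cp36*, *Cp38* and the neighbouring *Cp7Fc* lie side by side on the X chromosome, and *Cp18*, *Cp15*, *Cp19* and *Cp16* follow one another on arm 3L. *Vm26Aa* and *Vm34Ca* lie apart from each other on arm 2L, *Vm26Aa* beside *psd*, which encodes another vitelline membrane protein.

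The measure was the MAS5 Signal, an intensity per probe set on a linear scale. The median Signal of the non-control probe sets was 55.7 to 81.0 on female arrays and 131 to 149.8 on male arrays, so the medians differed between arrays, although the methods name a scaling to a common median. The trimmed mean, in contrast, was nearly the same on all arrays. The 2 pools of a female line correlated across probe sets at 0.958 to 0.974, and those of a male line at 0.978 to 0.986. The 10 germline genes of the ovary had a summed Signal of 37913 to 49739.8 on female arrays, against 3140.3 to 4428 on male arrays. The sum is ruled by the bright genes. *grk* overlapped between the sexes (lowest female 485, highest male 487), and *vas* barely separated (48.9 and 48.4). The 8 testis and accessory gland genes summed to 37.4 to 139 on female arrays, against 44625 to 66784 on male arrays. Flight muscle genes set the pools of S1 females apart. The summed Signal of *fln*, *TpnC4* and *Act88F* was 2511 in pool 1 and 55321 in pool 2, against 2931 to 38197 in the other female pools.

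All 8 eggshell genes were higher in females than in males, and for 8 of 8 genes every female array lay above every male array, which held for 20% of all 18769 probe sets. *Vm26Aa* had a Signal of 1812 to 14442, with a median of 8053, on 12 female arrays, against 5.04 to 12.3, with a median of 8.69, on 12 male arrays. *Cp16* had 176 to 4052, with a median of 1936, on female arrays, against 1.44 to 8.86, with a median of 4.7, on male arrays. The narrowest gap was that of *Cp18*, whose lowest female array, pool 1 of S1, had 182, against 62.8 on its highest male array. *Cp15* had a lowest female value of 2509, against a highest male value of 110.4, and 9 of 12 male arrays reached a Signal of 50, the filter level used below. For *Cp18*, 3 male arrays did so, and for the other 6 genes 0.

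In limma, the female minus male difference in log2 Signal was 9.82 ± 0.16 (standard error) for *Vm26Aa*, 9.35 ± 0.28 for *Vm34Ca*, 8.64 ± 0.35 for *Cp36* and 7.91 ± 0.34 for *Cp38*. It was 5.99 ± 0.52 for *Cp18*, 6.83 ± 0.18 for *Cp15*, 7.65 ± 0.63 for *Cp19* and 8.40 ± 0.50 for *Cp16*. Adjusted p-values over all non-control probe sets ranged from 2.39e-19 to 5.08e-09, so that 8 of 8 genes passed the threshold of 0.001 as higher in females, where 27.1% of all 18769 probe sets did. The median of the 8 differences was 8.15, against -0.04 over all probe sets. Apart from *Cp15*, most or all male arrays lay under the filter level, so that the sizes of these differences rest on dim male values. With the methods' analysis of variance on untransformed Signal, *Cp18*, *Cp19* and *Cp16* no longer passed, at adjusted p-values of 0.00677, 0.00146 and 0.00517. Across the 32 alternatives of this comparison, adjusted p-values were 2.24e-11 to 0.00677 for *Cp18*, 7.90e-10 to 0.00146 for *Cp19* and 2.56e-12 to 0.00517 for *Cp16*. In whole bodies, fewer egg chambers of a stage and less transcript per chamber cannot be told apart.

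**Figure D1:**
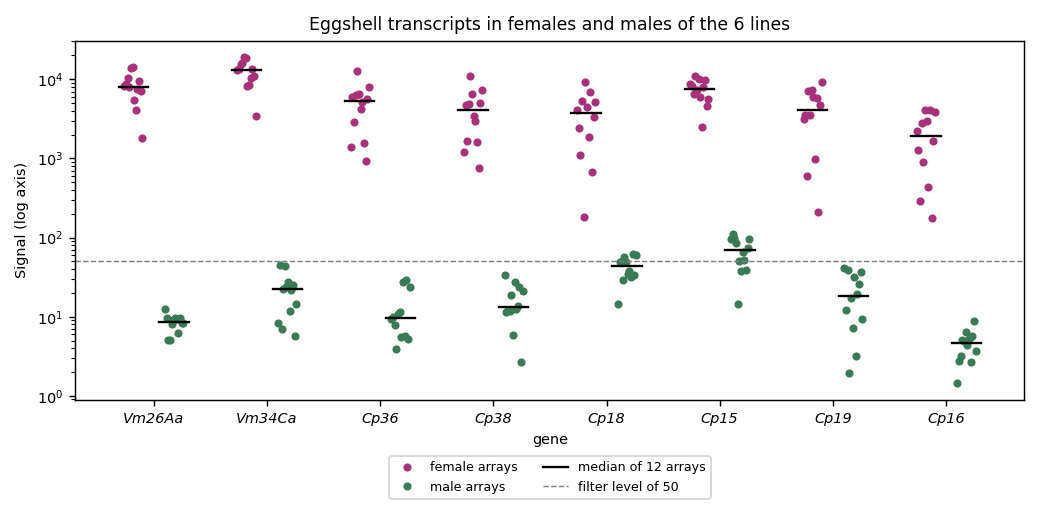
Signal (log axis) of the 8 eggshell genes on 12 female and 12 male arrays, 1 point per array, with the median as a black bar and the filter level of 50 as a dashed line. All female points lie above all male points of the same gene, with the smallest gap for *Cp18* (182 against 62.8).

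The vitelline membrane genes were the steadier part of the set between pools, apart from line C2. *Vm26Aa*, which encodes a major protein of the inner eggshell layer, had a Signal of 8179 and 8828 in the 2 pools of R1 females and 10353 and 7927 in R2. It had 14032 and 14442 in S1 and 5474 and 4103 in S2, against 7438 and 9418 in C1 and 7121 and 1812 in C2. Both S1 pools lay above every other pool, and pool 2 of C2 lay below every other pool. *Vm34Ca*, which encodes a related protein of the same layer, had 13108 and 13646 in R1, 15513 and 15983 in R2, 19081 and 18404 in S1 and 8138 and 8517 in S2. In the controls it had 10467 and 13423 in C1 and 10869.5 and 3397 in C2, so that S1 was again highest and pool 2 of C2 lowest. The order of the line means was the same for both genes, S1, R2, R1, C1, S2 and C2. For *Vm26Aa*, the geometric means ran from 14235 in S1 to 3593 in C2, and of the 5 pairs of neighbours in that order 3 overlapped in their pools, R2 with R1, R1 with C1 and S2 with C2. For *Vm34Ca* they ran from 18739 in S1 to 6076 in C2, with 2 of 5 pairs overlapping, R1 with C1 and S2 with C2.

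*Cp36* and *Cp38*, the chorion genes of the X chromosome, which are transcribed early in chorion formation, differed over 2-fold between the pools of 2 and 3 lines. *Cp36* had a Signal of 1387 and 6019 in the pools of R1, 2850.0 and 6397 in R2, 12694 and 6441 in S1 and 4176 and 5174 in S2. In the controls it had 1574 and 923 in C1 and 5559 and 7927 in C2. *Cp38* had 1194 and 4789.6 in R1, 1666 and 4870.4 in R2, 11132 and 6529 in S1 and 3387 and 2987 in S2, against 1595 and 752 in C1 and 4978 and 7308 in C2. For both genes pool 1 of S1 was the highest of the 12 and pool 2 of C1 the lowest, and pool 2 exceeded pool 1 in both resistant lines. *Cp36* ranged 13.7-fold and *Cp38* 14.8-fold over the 12 pools, whereas the log2 ratio of one to the other ranged over 0.81 with an SD of 0.26. The line means of both ran in the order S1, C2, S2, R2, R1 and C1, and 4 of 5 pairs of neighbours overlapped for each gene, the exception being C2 with S2.

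The chorion genes of the third chromosome, transcribed late in chorion formation, held both the most and the least variable of the 8 genes. *Cp18* had a Signal of 4116 and 2396 in R1, 1109.6 and 5374 in R2, 182 and 9303 in S1 and 4526 and 1857 in S2, against 6942 and 667 in C1 and 3371 and 5233 in C2. The lowest and the highest value of the 12 pools were thus the 2 pools of 1 line, S1. *Cp19* had 3118 and 3502 in R1, 595 and 7181 in R2, 3497 and 7214 in S1 and 5977 and 991 in S2, against 5770.2 and 208 in C1 and 4736 and 9234 in C2. *Cp16* had 2206 and 1274 in R1, 293 and 2808 in R2, 890.5 and 4052 in S1 and 2933 and 438 in S2, against 4040.3 and 176 in C1 and 1667 and 3859.9 in C2. *Cp19* and *Cp16* were both lowest in pool 2 of C1 and next lowest in pool 1 of R2. *Cp15* had 8720.0 and 8143 in R1, 6493 and 10848 in R2, 7289.6 and 10152 in S1 and 5985 and 2509 in S2, against 7984 and 9894 in C1 and 4552 and 5608 in C2. Although *Cp15* lies between *Cp18* and *Cp19*, it ranged 4.32-fold over the 12 pools, against 51.3-fold for *Cp18*, 44.4-fold for *Cp19* and 23.0-fold for *Cp16*. For *Cp18*, *Cp19* and *Cp16* the pools of all 5 neighbouring lines overlapped in the order of line means.

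**Figure D2:**
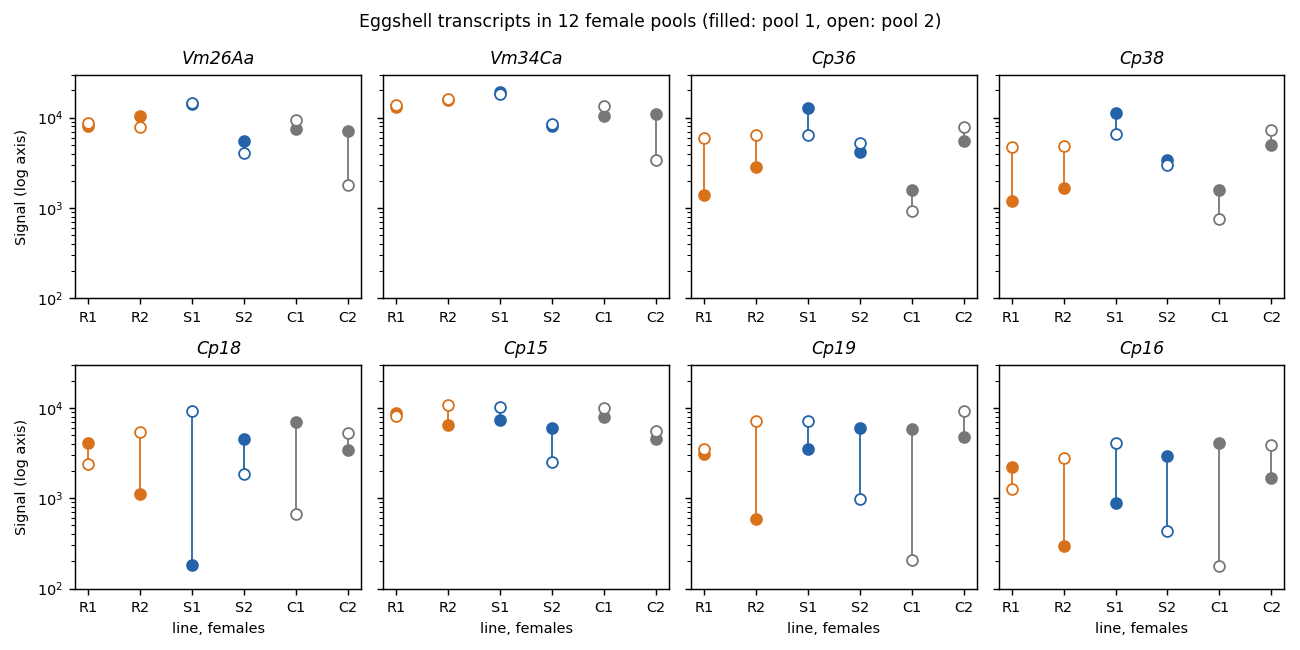
Signal (log axis) of the 8 eggshell genes in females of the 6 lines, with filled points for pool 1, open points for pool 2 and a line joining the pools of each fly line. The pools of *Cp18*, *Cp19* and *Cp16* lie far apart in most lines, whereas those of *Vm34Ca* separate mainly in C2 (10869.5 and 3397).

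Over 8 genes and 6 lines, 21 of 48 comparisons of pool 1 with pool 2 exceeded 2-fold, 12 exceeded 4-fold and 3 exceeded 16-fold. As a background, 3174 probe sets had a mean Signal of at least 1000 in females, a level chosen after the values had been seen. Among these, 1.08% of the comparisons of pools exceeded 2-fold and 0.142% exceeded 4-fold. The median size of the difference was 0.79 on the log2 scale over the eggshell genes and 0.12 over the bright probe sets. Of the 11857 probe sets that passed the filter, dim ones included, 7.98% to 12.5% differed over 2-fold between the pools of a female line, so the comparison with probe sets of like brightness is the closer one. Without S1 females the count was 18 of 40, where 0.315% of the comparisons of bright probe sets exceeded 2-fold, and without S1 and C2 females it was 15 of 32, where 0.197% did. The count of 21 was 21 with log2(Signal + 50), 22 after quantile normalization within each sex and 21 with each array centred on its median.

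The SD between pools within a line, over the 6 female lines, was 2.07 on the log2 scale for *Cp18*, 1.95 for *Cp16* and 1.93 for *Cp19*, and these were ranks 1, 2 and 3 of the 3174 bright probe sets. It was 0.84 for *Cp38* (rank 11), 0.80 for *Cp36* (rank 13), 0.60 for *Vm26Aa* (rank 27), 0.50 for *Vm34Ca* (rank 46) and 0.46 for *Cp15* (rank 58). The median of the bright probe sets was 0.14, and 95% of them lay below 0.33. Without C2 and S1 females, *Cp19*, *Cp16* and *Cp18* had ranks 1, 2 and 3, whereas the SD of *Vm26Aa* was 0.24 (rank 92) and that of *Vm34Ca* 0.13 (rank 797). Other genes of the egg had lower values in the same pools. The SD over the 10 germline genes was 0.06 for *osk*, the lowest, to 0.21 for *otu*, the highest, and it was 0.15 to 0.18 for the yolk protein genes *Yp1*, *Yp2* and *Yp3*. For *Cp18*, the SD of the 6 line means, 0.57, was smaller than the SD between pools within a line. The same held for *Cp19*, at 0.93, and for *Cp16*, at 0.63, whereas for the other 5 genes the line means had the larger SD. Each line mean averages 2 pools, so that the 2 kinds of SD are not on the same scale.

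**Figure D3:**
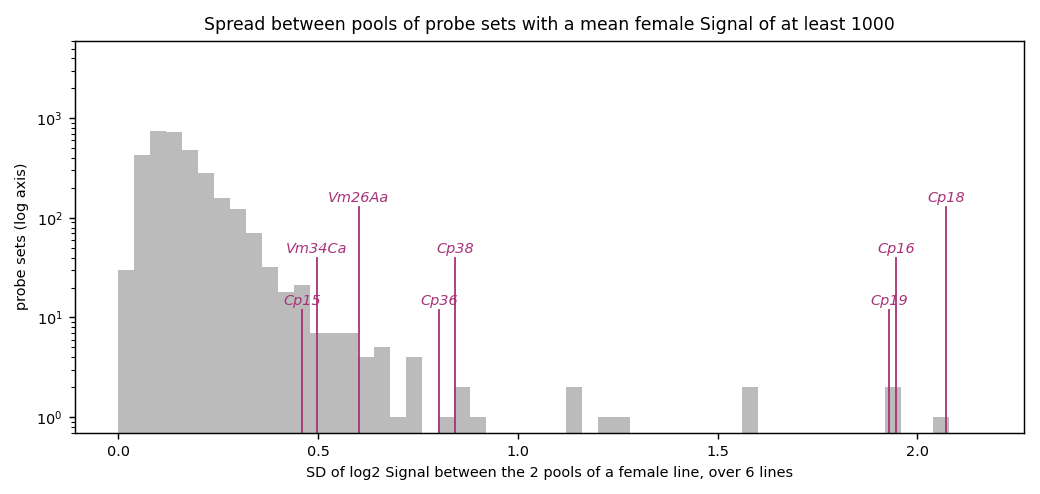
Number of probe sets (log axis) by their SD of log2 Signal between the 2 pools of a female line, over 6 lines, for the 3174 probe sets with a mean female Signal of at least 1000. Vertical lines mark the 8 eggshell genes, of which *Cp18*, *Cp16* and *Cp19* lie at the far right, at 1.93 to 2.07.

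Few other bright probe sets differed over 2-fold between pools in 4 of the 6 lines, and the eggshell genes made up much of those that did. In R1 there were 5 such probe sets (0.158%), 2 of them *Cp36* and *Cp38*, and in R2 there were 9 (0.284%), of which 5 were *Cp19*, *Cp16*, *Cp18*, *Cp38* and *Cp36*. In S2 there were 5 (0.158%), of which 4 were *Cp16*, *Cp19*, *Cp18* and *Cp15*, and in C1 there were 6 (0.189%), of which 4 were *Cp19*, *Cp16*, *Cp18* and *Cp38*. The pools of S1 and C2 differed more widely. In S1, 155 bright probe sets (4.88%) differed over 2-fold, among them the flight muscle genes *fln* (pool 1 minus pool 2, -5.35 on the log2 scale), *TpnC4* (-5.14) and *Act88F* (-3.84), beside *Cp18* (-5.68), *Cp16* (-2.19) and *Cp19* (-1.04). In C2 there were 25 (0.788%), which included *Vm26Aa* (1.97), *Vm34Ca* (1.68), *Cp16* (-1.21) and *dec* (2.00) together with digestive protease genes such as *Jon99Ci* (-1.74) and *Jon25Bii* (-1.43). The part of these other differences in the eggshell values of S1 and C2 was not tested. Without the 2 lines, *Cp19* still differed between the pools of C1, R2 and S2 by 27.8-fold, 12.1-fold and 6.03-fold.

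The direction of the pool differences was compared between genes, with the 2 vitelline membrane genes, *Cp36* and *Cp38*, and *Cp18*, *Cp19* and *Cp16* as 3 groups. The groups were drawn up from these values, so that counts over them are descriptive, and *Cp15* was left out of groups and counts. Pairs within a group were higher in the same pool in 24 of 30 comparisons, and pairs from different groups in 44 of 96. *Cp36* and *Cp38* were higher in the same pool in 5 of 6 lines, the exception being S2, where the differences were -0.31 and 0.18. *Cp18* and *Cp16* were higher in the same pool in 6 of 6 lines, and *Cp19* joined *Cp16* in 5, with R1 as the exception (-0.17 for *Cp19* and 0.79 for *Cp16*). *Vm26Aa* and *Vm34Ca* were higher in the same pool in 3 lines only. Some pairs from different groups also shared the direction in most lines, such as *Cp38* with *Cp19* in 5 lines, and *Cp15* shared it with *Cp18* and with *Cp16* in 5 lines each. The mean difference of *Cp18*, *Cp19* and *Cp16* was 0.47 in R1, -3.04 in R2, -2.97 in S1, 2.21 in S2, 4.23 in C1 and -0.94 in C2. That of *Cp36* and *Cp38* was -2.06 in R1, -1.36 in R2, 0.87 in S1, -0.06 in S2, 0.93 in C1 and -0.53 in C2. In R1 the wider differences were those of the X-linked pair, -2.12 and -2.00, beside 0.78 for *Cp18* and 0.79 for *Cp16*, and in S2 those of the 3 autosomal genes, 1.29 to 2.74. In S1 the means of the 2 groups had opposite signs. *Vm26Aa* and *Vm34Ca* had differences of 1.97 and 1.68 in C2 and of -0.36 to 0.42 in the other lines, with opposite signs in R2, S1 and S2.

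Over the 12 female arrays, which share lines in pairs, log2 Signal correlated at a Pearson's r of 0.975 for *Cp36* with *Cp38*, 0.970 for *Vm26Aa* with *Vm34Ca* and 0.956 for *Cp19* with *Cp16*. *Cp18* had an r of 0.748 with *Cp16* and 0.599 with *Cp19*. Its widest departure from them was in pool 1 of S1, where *Cp18* had a Signal of 182 and was at its lowest, whereas *Cp19* had 3497. The 16 pairs of genes from different groups had r of -0.34 to 0.67, with a median of -0.08. *Cp15* had r of 0.547 with *Vm26Aa*, 0.502 with *Vm34Ca*, and 0.0946 to 0.222 with its 3 neighbours on 3L. The groups were drawn up after the values had been seen, and these coefficients describe 12 arrays of 6 lines.

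**Figure D4:**
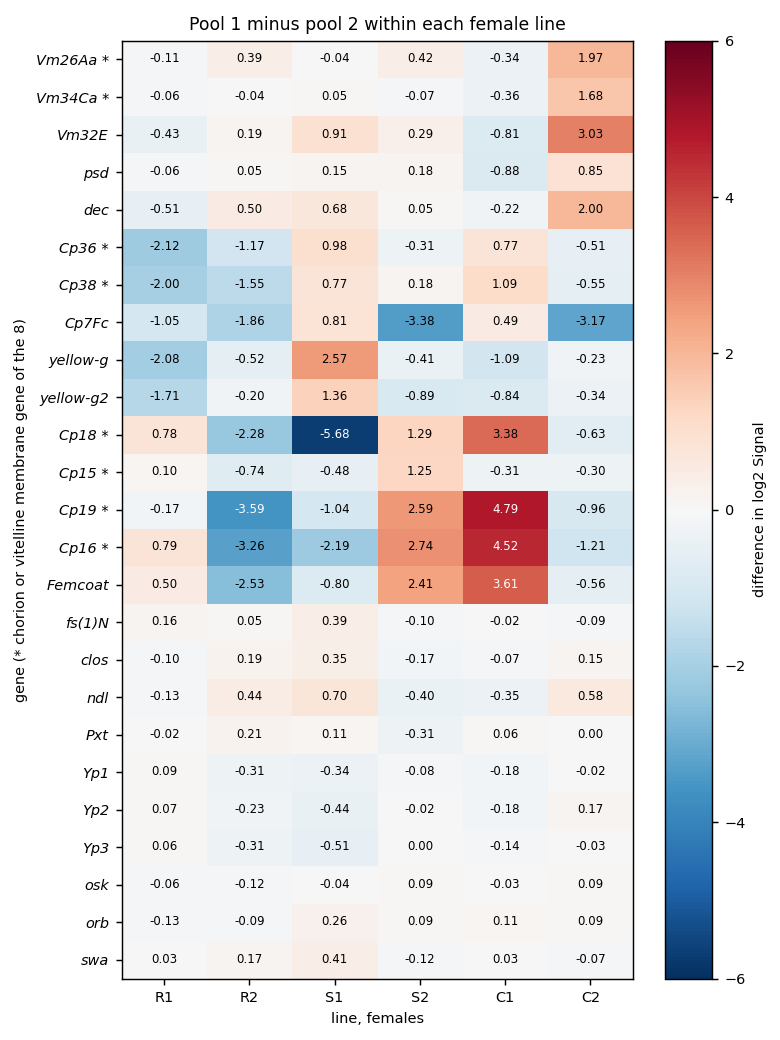
Difference in log2 Signal, pool 1 minus pool 2, in females of each line (columns) for the 8 eggshell genes, marked with a star, and for other eggshell, yolk and germline genes (rows). Red cells are higher in pool 1 and blue cells in pool 2, and *Cp18*, *Cp19*, *Cp16* and *Femcoat* share their colour in nearly all lines while the yolk and germline rows stay pale.

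Among 16 other eggshell genes, 11 were paired with a probe set, and several were higher in the same pools as genes of these groups. *Femcoat*, which encodes a chorion protein and lies on the X chromosome, was higher in the same pool as *Cp16* in 6 of 6 lines, with an r of 0.947, and had an r of 0.964 with *Cp19*. It had a Signal of 479 in pool 1 of C1 and 39.1 in pool 2, and missed the filter, with 11 arrays at a Signal of 50. *dec*, which encodes proteins needed for the organisation of the eggshell, and *Vm32E*, a further vitelline membrane gene, followed *Vm26Aa* and *Vm34Ca*. In C2, *dec* had 1564 in pool 1 and 390.2 in pool 2, and *Vm32E* had 412 and 50.4. *Cp7Fc*, the neighbour of *Cp36*, was higher in the same pool as *Cp36* in 6 of 6 lines, but with an r of 0.327. Its differences were of another size, -3.38 in S2 and -3.17 in C2, where *Cp36* had -0.31 and -0.51. *yellow-g* and *yellow-g2*, which are expressed in follicle cells, were higher in the same pool as *Cp36* in 5 lines each. They shared it with *Vm34Ca* in 5 lines each as well, and with *Cp38* in 4. Their r was 0.82 and 0.80 with *Cp36*, against 0.06 and 0.21 with *Vm34Ca*. *Pxt*, *clos* and *fs(1)N*, which act in eggshell cross-linking or in vitelline membrane integrity, differed by 0.39 or less in all lines.

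All 11 of these genes were higher in females, with differences of 4.07 ± 0.08 for *clos* to 7.72 ± 0.25 for *dec*. Each passed the threshold, an adjusted p under 0.001 in limma, as did 27.1% of all 18769 probe sets in that direction. The same held for all 10 paired genes, of 12, of the chorion gene amplification machinery and its regulators, which also act in dividing cells. Their differences ran from 1.87 ± 0.06 for *E2f2*, which limits replication in follicle cells, to 6.07 ± 0.16 for *Orc1*, a subunit of the origin recognition complex. Between the pools of a female line, *dup* and *chif*, needed for the firing of the amplification origins, had an SD of 0.34 each. S1 was the 1 line in which each differed over 2-fold.

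The genes whose log2 Signal over the 12 female arrays was most like the mean of the 2 vitelline membrane genes, among 10571 probe sets with 1 symbol, were *dec* (r = 0.957), *Vm32E* (0.952), *St4* (0.914), *CG32259* (0.889) and *prage* (0.864). *dec* and *Vm32E* had a median Signal of 1895 and 708 in females, against 13.7 and 6.61 in males. *CG32259* and *prage* had female medians of 18.2 and 42.6, under a Signal of 50, so that their likeness rests on dim values. For the mean of the 6 chorion genes the list was *CG13083* (0.944), *CG33061* (0.882), *SLO2* (0.854), *CG15022* (0.849) and *pHCl-1* (0.834). *CG13083* had a Signal of 100.5 to 941, with a median of 613, on female arrays, against a median of 13.8 on male arrays. It was higher in the same pool as the chorion mean in 6 of 6 lines. Since it was chosen by its r over the same arrays, this adds no separate evidence. The other 4 had female medians of 15.8 to 116. For the mean of *Cp36* and *Cp38*, a profile added after the values had been seen, the nearest was *CG11381* (0.854), with 152 to 1289 on female arrays and a median of 4.94 on male arrays.

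The comparison of the lines asked whether transcript levels diverged with selection for alcohol resistance or sensitivity. No line difference in the 8 eggshell genes passed the threshold of the methods, an adjusted p of 0.001. The line effect over the 6 lines was called in limma for 0 of 8 genes, where 12.3% of 11857 probe sets were called. An unadjusted p under 0.05 was reached by 2 genes and by 5959 of the 11857 probe sets. The line by sex interaction was called for 0, where 0.245% were called, and 3 genes and 2657 probe sets had an unadjusted p under 0.05. Differences among the 6 lines in females alone were called for 0, where 6.95% were called. Here 1 gene and 5687 probe sets had an unadjusted p under 0.05. The methods' analysis of variance on Signal also called 0 of 8 in each of these tests. The nearest was *Vm26Aa*, with an adjusted p of 0.0114 for the line differences among females. *Vm34Ca* had 0.348, and *Cp18*, *Cp19* and *Cp16* had 0.885, 0.706 and 0.805. The fit takes 1 spread per gene from the pools of both sexes. For *Vm26Aa* the SD between pools was 0.60 in females and 0.21 in males, against 0.50 and 1.04 for *Vm34Ca*. The order of the genes by adjusted p thus rests in part on dim male values. All 8 genes passed the filter through their female arrays.

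The call on *Vm26Aa* depended on 1 array. Without pool 1 of C2 females, which leaves the low pool 2 as the lone C2 female array and takes it to vary like the other groups, its adjusted p was 2.59e-05 for the line differences among females, 0.000117 for the line effect and 0.000791 for the interaction. Across all alternatives, the adjusted p ranged from 2.59e-05 to 0.0595 for line differences among females, from 0.000117 to 0.318 for the line effect and from 0.000791 to 0.183 for the interaction. In the same fit the contrasts that involve *Vm26Aa* in females were called for resistant minus control, at 1.17 on the log2 scale, sensitive minus control, at 1.08, S1 minus S2, at 1.59, and C1 minus C2, at 2.21.

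No difference between resistant and sensitive females was called in the 8 genes by the rule of the methods, which calls a contrast with p under 0.05 where the line effect or the interaction has passed. The rule called 0 of 8 genes, where it called 7.16% of 11857 probe sets. An unadjusted p under 0.05 was found for 0 genes and for 2330 probe sets. *Vm26Aa* averaged 8822 ± 1089 in resistant females and 9513 ± 5486 in sensitive females (SD, n = 4 pools of 2 lines each). Its difference in mean log2 Signal was 0.10 ± 0.29, the opposite direction to that of the mean Signals. For log2 differences between selection groups, ± is the limma standard error. That error rests on the spread between pools and leaves out the spread between the 2 lines of a group. *Cp36* averaged 4163 ± 2440.3 in resistant and 7121 ± 3829 in sensitive females, a difference of -0.88 ± 0.62, and *Cp38* had a difference of -0.997 ± 0.62. For *Cp15* the difference was 0.54 ± 0.33, and for *Cp18*, *Cp19* and *Cp16* it was 0.51 ± 0.94, -0.42 ± 1.14 and -0.25 ± 0.89. The pools of resistant and sensitive females overlapped for 8 of 8 genes, where 4.89% of the probe sets tested did not overlap. The median difference of the 8 genes was -0.08, against 0.03 over all probe sets tested.

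Each selected group was also compared with the controls. Resistant minus control females gave 0 of 8 calls, where 6.85% of probe sets were called. Of the 11857 probe sets, 3668 had an unadjusted p under 0.05, as did 1 of the 8 genes. Sensitive minus control females gave 0 of 8, where 7.38% were called, with 2863 probe sets and 0 genes at an unadjusted p under 0.05. The analysis of variance on Signal called 0 of 8 in each of the 3 contrasts. *Vm26Aa* had a difference of 0.68 ± 0.29 for resistant minus control (adjusted p = 0.121) and 0.58 ± 0.29 for sensitive minus control. *Cp36* had 0.31 ± 0.62 for resistant minus control and 1.20 ± 0.62 for sensitive minus control. The standard error reached 0.89 to 1.14 for *Cp18*, *Cp19* and *Cp16*, so that for these genes a 2-fold difference between groups is close to 1 standard error. The comparisons share control arrays, and the pools overlapped for 8 of 8 genes in each, where 16.1% of the probe sets tested did not overlap between resistant and control females and 3.99% between sensitive and control females.

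**Figure D5:**
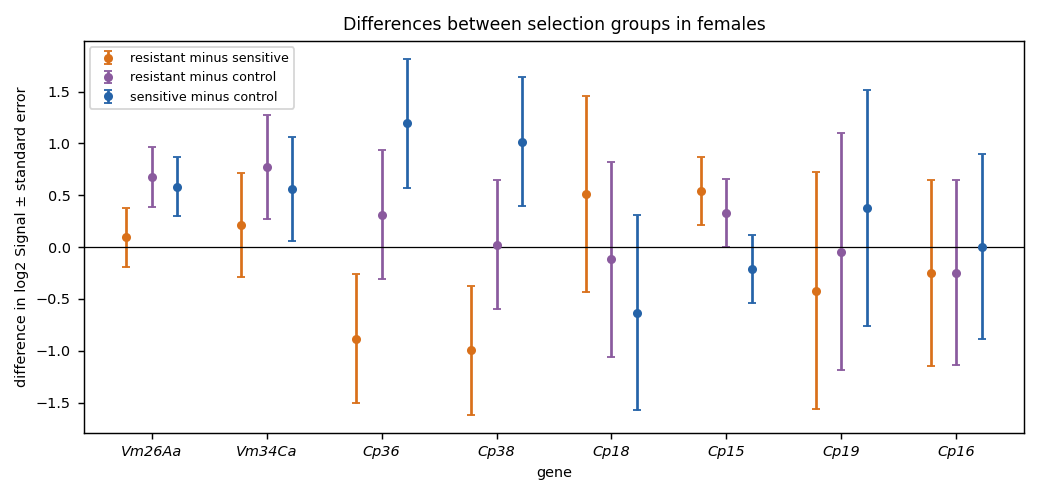
Differences in log2 Signal between selection groups in females for the 8 eggshell genes, with points for the limma estimate and bars for the standard error, resistant minus sensitive in orange, resistant minus control in purple and sensitive minus control in blue. The bars are longest for *Cp19* (1.14) and shortest for *Vm26Aa* (0.29), and none of the differences was called. Each bar rests on the spread between pools of both sexes, dim male values included, and leaves out that between lines of a group. With line means as single values, the resistant minus sensitive standard error was 0.56 for *Vm26Aa*, 0.79 for *Cp19* and 0.40 for *Cp15*.

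Lines of the same selection group were compared in the same way. R1 minus R2 females gave 0 of 8 calls (6.18% of probe sets called), S1 minus S2 gave 0 (8.63%) and C1 minus C2 gave 0 (6.54%). In this order, 0, 2 and 3 genes had an unadjusted p under 0.05, against 2442, 4237 and 2596 of 11857 probe sets. The analysis of variance on Signal called 0 of 8 in each. *Vm26Aa* was 1.59 ± 0.41 higher in S1 than in S2 (adjusted p = 0.0111), which the rule does not call because its line effect and interaction did not pass. *Cp36* and *Cp38* had a C1 minus C2 difference of -2.46 ± 0.88 each, with adjusted p-values of 0.103 and 0.101, and *Vm26Aa* one of 1.22 ± 0.41 (adjusted p = 0.0787). C1 females had 1574 and 923 for *Cp36*, below both C2 pools at 5559 and 7927.

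The difference between the line pairs, R1 minus S1 against R2 minus S2 in females, was called for 0 of 8 genes at an adjusted p of 0.05. Of 11857 probe sets, 11.8% were called. An unadjusted p under 0.05 was found for 1 gene and 3098 probe sets. *Vm26Aa* had -0.74 ± 0.41 for R1 minus S1 and 0.93 ± 0.41 for R2 minus S2, a difference of -1.68 ± 0.57 with an adjusted p of 0.0678. That gene was called at an adjusted p of 0.0327 with log2(Signal + 50), of 0.00459 in the analysis of variance on Signal, which also called *Vm34Ca* (0.00475), and of 0.00231 and 0.00213 without pool 1 or pool 2 of C2 females. Over all 31 alternatives the adjusted p ranged from 0.00213 to 0.209 for *Vm26Aa* and from 0.00475 to 0.545 for *Vm34Ca*. With the mean of each line as 1 value, 2 resistant against 2 sensitive lines, limma called 0 of 8 genes and 0 of 11857 probe sets (0%). At an unadjusted p under 0.05 there were 0 of the 8 genes and 324 probe sets, and the smallest adjusted p over all probe sets was 0.118.

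Of the other eggshell genes, 10 of 16 passed the filter. *Pxt*, a peroxidase of the eggshell, was called for the line effect (adjusted p = 0.000562) and for the line by sex interaction (0.000751) in limma, with male values of at most 37.0. The other 9 were called in neither, and over all probe sets 12.3% and 0.245% were called. None of the 10 was called for line differences among females, where 6.95% of 11857 probe sets were called. In that test 5 of the 10 genes and 5687 of the probe sets had an unadjusted p under 0.05. The smallest adjusted p of the 10 was that of *psd*, at 0.0287. *psd* had a Signal of 1183 and 1069 in S1, against 177 to 907 in the other female pools, and *dec* had 5638 and 3517 in S1. Of the 10 amplification genes, 0 were called for line differences among females, with 2 at an unadjusted p under 0.05. For resistant minus sensitive females, 0 of the 10 eggshell genes and 0 of the 10 amplification genes were called, where 7.16% of probe sets were. An unadjusted p under 0.05 was found for 0 of either and for 2330 of 11857 probe sets.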

How the data were processed

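RNA of 24 pools of whole flies was hybridised to Affymetrix Drosophila Genome 2.0 arrays. Intensities per probe set were deposited by the authors as the Signal of MAS5 (named in the submitters' processing notes). The methods name a scaling to a common median, whereas the deposited values share a trimmed mean. Detection calls were not used. Control probe sets (183 of 18952) were left out. Of the others, 13647 carried 1 symbol, 402 several and 4720 none.

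Signal was raised to a floor of 1 (325 of 284568 tested values, 0 of those of the 8 genes) and log2 transformed. Probe sets with a Signal of 50 on 12 arrays were kept (11857), except for females minus males, which used all 18769. R 4.3.3 and limma 3.58.1 (lmFit, eBayes with trend) fitted 12 means of line and sex, with Benjamini-Hochberg adjustment. Thresholds followed the methods, 0.001 for F tests and 0.05 for contrasts of probe sets past them. The fit was run on simulated data with a large planted resistant minus sensitive step, no other line differences and independent noise. That run does not show how the fit treats smaller steps or lines that differ. Nothing in the sources says that pools came from separate cultures, so p-values measure the spread between pools, and 2 arrays per line and sex limit the precision.

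The genes named are the members, fixed lists of other eggshell, amplification, yolk and marker genes, and the 5 genes most correlated with each member profile. Members and lists were chosen with earlier results of these data known. The 2 groups of chorion genes, bright probe sets and genes named for pool differences were chosen after their values were seen. Names follow RefSeq's Release 6 table, which gave gene order and the updated symbols *dec*, *nanos* and *SP*. Alternatives changed the transform, filter, scaling, variance trend, block, test, threshold and arrays, and leaving out S1 or S1 and C2 females was added after the data were seen. Replicate numbers did not pair the samples, with correlations of deviations from group means of -0.15 to 0.18 (median 0.01) over 66 pairs of groups.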

Additional observations from a re-analysis of the deposited data

Results flagged for a closer look

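In control females, *Vm26Aa* was set apart in 1 sample. Pool 2 of C2 had a Signal of 1812, against 7121 in pool 1 of C2 and 7438 and 9418 in C1, and its gap to the nearest of the other pools was 0.830 of the whole range on the log2 scale, just above Dixon's critical value for 4 samples. *Vm34Ca*, *dec* and *Vm32E* were lowest in the same pool. This was 1 of 24 groups of 4 tested, and chance alone sets apart about 1 in 20 groups.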

How the results depend on the processing

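Of 376 recomputed counts for the eggshell genes, 363 were within 1.5 times the reported count, most of them counts of 0 that stayed 0. A change of sign counted as a reversal only for called differences or pool differences over 2-fold, and there were 0. Sign changes in differences that were not called were left uncounted. Females minus males called 5 genes by analysis of variance on Signal and 8 to 8 leaving out single arrays. Leaving out single arrays gave 0 to 1 called genes for the line effect, the interaction, line differences among females, resistant minus control, sensitive minus control, S1 minus S2, C1 minus C2 and the difference between line pairs, the 1 being *Vm26Aa*, and 0 to 0 for resistant minus sensitive, R1 minus R2 and the line means. At an adjusted p of 0.05, line differences among females called 1 gene. The difference between line pairs called 1 with log2(Signal + 50) and 2 by analysis of variance. A replicate block called 8 genes for females minus males and 0 for the others, and over all probe sets 1347 (1453 without it) for the line effect and 24 (29) for the interaction, so that the block changed no call on the 8 genes.

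Counts over all probe sets moved more. For the interaction (29) they were 51 with log2(Signal + 50), 18 without variance trend, 81 by analysis of variance, 460 at 0.05, 50 without S1 females and 15 to 97 leaving out single arrays. Line differences among females (824) had 231 with female arrays only, 4216 at 0.05, 1251 without S1 females and 484 to 1471 leaving out single arrays. The line effect (1453) had 4789 at 0.05. Resistant minus sensitive (849) had 178 with female arrays only, 10 with line as a random block and up to 1318 leaving out 1 array. Resistant minus control (812) had 162, 0 and up to 1340, and sensitive minus control (875) had 177, 0 and, without S1 females, 1314. With female arrays only, R1 minus R2 (733) had 161, S1 minus S2 (1023) 183, C1 minus C2 (775) 159 and the line pairs (1404) 886. R1 minus R2 had up to 1119, C1 minus C2 down to 514 and the line pairs down to 931 leaving out 1 array, and S1 minus S2 had 678 by analysis of variance. The line means (0) had 4 without S1 females. Causes were not tested. Dim male Signals limit the sizes of sex differences.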

Other observations

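Of 6 regulators of follicle and border cell development, 4 were paired with a probe set, and 2 of these were higher and 1 lower in females. Of all 18769 probe sets, 27.1% were called higher and 24.5% lower. *br*, an ecdysone-responsive transcription factor, had a Signal of 99.0 to 338, with a median of 191, on 12 female arrays, against 19.1 to 71.7, with a median of 47.2, on 12 male arrays, a female minus male difference of 2.11 ± 0.18 on the log2 scale (adjusted p = 2.97e-09 in limma). *EcR*, the ecdysone receptor, was higher in females by 0.54 ± 0.10 (adjusted p = 9.21e-05), and *slbo*, a transcription factor of the border cells, was lower, with a difference of -0.58 ± 0.11 (adjusted p = 0.000101). *mirr*, a transcription factor that patterns the follicle cells, had a difference of -0.14 ± 0.11, which did not pass. The SD between pools of a female line was 0.42 for *br*, 0.25 for *EcR*, 0.25 for *mirr* and 0.22 for *slbo*. These genes are also expressed outside the ovary.

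*ftz-f1*, a nuclear receptor gene, was among the bright probe sets that differed over 2-fold between pools, in R1 (1.45 on the log2 scale, pool 1 minus pool 2) and in S1 (1.93). It was chosen after its values were seen.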
